A study of Mus musculus with 10 samples.

Results

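The genes described here carry a newly made protein into the endoplasmic reticulum (ER) and on to the Golgi. They comprise the translocon, the signal peptidase, the oligosaccharyltransferase, the signal recognition particle and the COPII and COPI coats. The 42 members were named by symbol for their place in this route, with no threshold on a measured value but with earlier results of these data known, from 53392 genes in the deposited table. All 42 were found there, and all 42 passed the filter on low counts that left 15392 genes for testing. RNA was sequenced from livers of 24-week-old C57BL/6 mice. One group carried a deletion of hepatic Fbp1, the gene for the gluconeogenic enzyme fructose-1,6-bisphosphatase 1 (5 livers, replicates 6 to 10), and the other was wild type (WT; 5 livers, replicates 1 to 5). The question was how the loss of this enzyme bears on the liver transcriptome. The labels do not state how the deletion was made, which promoter drove any Cre, or the sex and feeding state of the mice.

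Secreted and membrane proteins enter the ER through the Sec61 channel, to which the signal recognition particle brings the ribosome. Signal peptidase removes the signal sequence, and the oligosaccharyltransferase attaches a glycan to the chain as it emerges. COPII vesicles carry folded cargo towards the Golgi, COPI vesicles return escaped residents and receptors, and hepatocytes use this route heavily because they make most plasma proteins. When unfolded proteins build up in the ER, transcription factors such as XBP1 and ATF6 raise the expression of chaperones and of many genes of this route.

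The libraries held between 17778395 and 23894812 counts each, and values are in CPM, the count relative to a library size scaled by the trimmed mean of M values. Fbp1 lay between 7.38 and 13.4 CPM in the Fbp1-deleted livers and between 778 and 1050 CPM in the WT livers, and so followed the label in every liver. Of 8 hepatocyte markers, Tat (log2 change 1.67) and Cps1 (0.68) were higher. The other 6 were not called, with log2 changes between -0.30 for Hnf4a and 0.18 for Apoa1. The mean log2 CPM of these 8 markers lay between 11.79 and 12.02 in Fbp1-deleted livers and between 11.37 and 11.84 in WT livers. Replicates 8 and 10 of the Fbp1-deleted group stood apart from replicates 6, 7 and 9 in the genes described here and in ER stress genes, so the counts of called genes are given with and without them.

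Of the 42 members, 18 were higher in Fbp1-deleted livers and 0 were lower at an adjusted p under 0.05 (edgeR quasi-likelihood test, Benjamini-Hochberg over all genes tested). The share called was 42.9%, against 20.6% of all 15392 genes. By direction, 10.6% of all genes were called higher and 10% lower. Without adjustment, 25 members passed p under 0.05 as higher and 1, Sar1b, as lower, and DESeq2 called 20 higher and 0 lower. The fitted log2 change was above 0 for 39 of 42 members, with a median of 0.33, against a median of 0.01 over all genes tested. Among the 9126 genes whose mean level lay within the range of the members, 14.2% were called higher and the median was 0.04. In 10 members every Fbp1-deleted liver was above every WT liver, a pattern that 6.57% of all genes showed. Only 11 members were called when Fbp1-deleted replicate 6 or Fbp1-deleted replicate 9 was left out, and 24 when Fbp1-deleted replicates 8 and 10 were both left out. The share of all genes called higher also fell, to 6.9% without replicate 6 and 6.76% without replicate 9. The fit without replicates 8 and 10 called 1819 of 16109 genes higher (11.3%) and 1673 lower. Those replicates were left out because they stood low in these same members. That choice favours the larger count of 24, which is therefore no separate support. Exons of 14 members overlap those of another gene: Copa, Copg1, Rpn1, Rpn2, Sec11a, Sec23a, Sec24c, Sec61a1, Sec62, Sec63, Spcs1, Spcs3, Srp9 and Ssr2. The libraries do not keep the strand, so reads from the shared stretches of exon cannot be assigned to a gene by strand. For Sec11a, 1 of the overlapping genes, Nmb, is on the same strand. The counts of these members are uncertain to that extent, which was not measured.

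**Figure D1:**
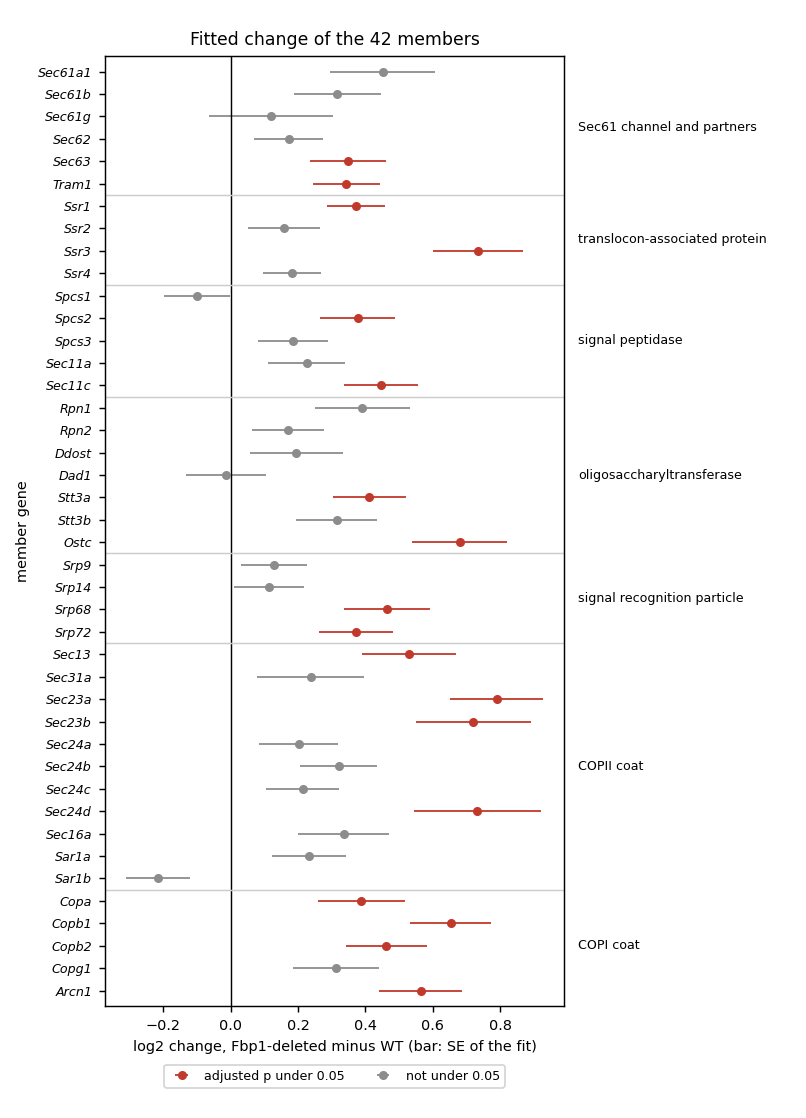
Fitted log2 change of each of the 42 members (horizontal axis, Fbp1-deleted minus WT, bars give the standard error of the fit), grouped by complex, with red for an adjusted p under 0.05. All but Spcs1, Dad1 and Sar1b lie above 0, and the 18 red points run between 0.34 and 0.79.

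Entry into the ER begins with the signal recognition particle, which binds the signal sequence as it leaves the ribosome. In these livers the genes of its large protein pair were higher while those of its small pair were not called. Srp68, which binds the particle's RNA together with Srp72, had 79.9, 87.0, 59.0, 78.4 and 61.3 CPM in Fbp1-deleted replicates 6 to 10, against 44.0, 50.8, 59.5, 59.1 and 51.4 CPM in WT replicates 1 to 5. Replicate 8 fell just below the highest WT liver, and the other 4 lay above all WT livers. The log2 change was 0.47 (SE 0.13, adjusted p = 0.0206). Srp72 had 100.2, 86.5, 81.5, 97.3 and 90.2 CPM in Fbp1-deleted livers, against 59.5, 61.2, 80.8, 79.5 and 71.0 CPM in WT livers. The groups did not overlap, though WT replicate 3 came within 1 CPM of the lowest Fbp1-deleted liver, and the log2 change was 0.37 (SE 0.11, adjusted p = 0.0285). Srp9 and Srp14 form the heterodimer that slows translation during targeting. Srp9 averaged 72.1 ± 5.87 CPM in Fbp1-deleted livers and 66.0 ± 6.92 CPM in WT livers (log2 change 0.13, adjusted p = 0.385). Srp14 averaged 27.8 ± 2.02 CPM in Fbp1-deleted livers and 25.7 ± 3.11 CPM in WT livers (log2 change 0.11, adjusted p = 0.473). The Srp68 call was lost when any one of Fbp1-deleted replicates 6, 7 and 9 or WT replicates 2 and 5 was left out (adjusted p between 0.0518 and 0.058). The Srp72 call was lost without any one of Fbp1-deleted replicates 6 and 9 or WT replicates 1, 2 and 5 (adjusted p between 0.0618 and 0.0831).

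At the channel itself, the accessory proteins Tram1 and Sec63 were higher and the 3 channel subunits were not called. Tram1, a membrane protein that contacts nascent chains beside the channel, had 119, 97.7, 99.97, 117 and 89.4 CPM in Fbp1-deleted replicates 6 to 10, against 77.0, 77.8, 84.1, 88.9 and 84.0 CPM in WT replicates 1 to 5. The groups did not overlap, and replicate 10 was the closest to WT (log2 change 0.34, SE 0.10, adjusted p = 0.0268). Sec63, the J-domain partner that recruits the chaperone BiP to the channel, had 127, 112, 91.7, 120.4 and 109.9 CPM in Fbp1-deleted livers, against 80.2, 77.7, 103, 96.5 and 82.8 CPM in WT livers. Replicate 8 lay inside the WT range (log2 change 0.35, SE 0.11, adjusted p = 0.0435). Sec61a1, the pore-forming subunit, averaged 172.6 ± 30.1 CPM in Fbp1-deleted livers and 126 ± 25.8 CPM in WT livers, with a log2 change of 0.45 that narrowly missed the threshold (SE 0.16, adjusted p = 0.054). Its adjusted p ran between 0.0307 and 0.126 over the 19 other settings. The small subunits Sec61b (log2 change 0.32, adjusted p = 0.0987) and Sec61g (0.12, adjusted p = 0.68) and the Sec63 partner Sec62 (0.17, adjusted p = 0.258) were not called. The Tram1 call was lost without any one of Fbp1-deleted replicates 6 and 9 or WT replicates 1, 2 and 5 (adjusted p between 0.0551 and 0.0794), and the Sec63 call without any one of Fbp1-deleted replicates 6, 7, 9 and 10 or WT replicates 1, 2 and 5 (adjusted p between 0.0699 and 0.115). Exons of Sec63 overlap those of Gm26860.

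The translocon-associated protein (TRAP) complex sits beside the channel and assists the insertion of some signal sequences. Ssr3, its gamma subunit, had the largest change of its 4 subunits. It had 277, 221, 167, 246 and 196 CPM in Fbp1-deleted replicates 6 to 10, against 119, 125, 148, 149 and 124 CPM in WT replicates 1 to 5. No liver overlapped, replicate 8 was the lowest of the Fbp1-deleted group, and the log2 change was 0.73 (SE 0.13, adjusted p = 0.00226). Ssr1, the alpha subunit, had 91.9, 88.3, 81.6, 89.0 and 79.8 CPM in Fbp1-deleted livers, against 64.0, 66.6, 66.1, 74.0 and 62.0 CPM in WT livers. It varied little within each group, the groups did not overlap, and the log2 change was 0.37 (SE 0.09, adjusted p = 0.00939). Ssr2 (0.16, adjusted p = 0.328) and Ssr4 (0.18, adjusted p = 0.157), the beta and delta subunits, were not called on the same log2 scale. The stretches before the start of Ssr1 and Ssr3 are shown because each holds ACGTGG, the core of a sequence bound by the ER stress factors XBP1 and ATF6. Both are RefSeq sequences of GRCm38.p6, read 5′ to 3′ on the minus strand, at chr13:37994218-37994458 for Ssr1 and chr3:65392624-65392803 for Ssr3. Capitals mark the core, which appears as its reverse complement, and each stretch ends where the annotated gene begins.
Ssr1: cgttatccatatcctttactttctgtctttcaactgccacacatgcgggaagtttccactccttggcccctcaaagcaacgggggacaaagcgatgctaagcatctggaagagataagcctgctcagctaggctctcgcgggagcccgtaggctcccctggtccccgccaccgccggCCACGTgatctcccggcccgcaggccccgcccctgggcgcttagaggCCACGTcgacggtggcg
Ssr3: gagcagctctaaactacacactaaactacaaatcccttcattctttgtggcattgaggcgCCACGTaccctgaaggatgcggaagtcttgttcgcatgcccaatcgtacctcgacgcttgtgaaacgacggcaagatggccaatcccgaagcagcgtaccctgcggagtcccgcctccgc
Ssr1 held the core at positions -73 to -68 and -26 to -21 from the RefSeq start, and Ssr3 at -190 to -185.

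Signal peptidase, which cuts off the signal sequence, has the alternative catalytic subunits Sec11a and Sec11c. Sec11c was higher and Sec11a was not called. Sec11c had 23.8, 21.1, 20.6, 24.8 and 17.4 CPM in Fbp1-deleted replicates 6 to 10, against 17.0, 15.6, 14.4, 15.6 and 16.3 CPM in WT replicates 1 to 5. All Fbp1-deleted livers were above all WT livers, replicate 10 by the least, and the log2 change was 0.45 (SE 0.11, adjusted p = 0.012). Spcs2, an accessory subunit, had 90.2, 91.0, 67.9, 82.9 and 68.7 CPM in Fbp1-deleted livers, against 63.9, 55.6, 64.4, 67.97 and 56.8 CPM in WT livers. Replicate 8 was level with the highest WT liver, and the log2 change was 0.38 (SE 0.11, adjusted p = 0.0278). That call was lost without any one of Fbp1-deleted replicates 6, 7 and 9 or WT replicates 2 and 5 (adjusted p between 0.0628 and 0.0798). Sec11a (log2 change 0.23, adjusted p = 0.178), Spcs3 (0.19, adjusted p = 0.234) and Spcs1 (-0.10, adjusted p = 0.508) were not called.

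The oligosaccharyltransferase transfers the preassembled glycan to asparagine, with Stt3a or Stt3b as its catalytic subunit. Ostc and Stt3a were higher in Fbp1-deleted livers. Ostc, which belongs to the Stt3a form that works beside the channel, had 52.0, 58.3, 35.5, 42.1 and 36.0 CPM in Fbp1-deleted replicates 6 to 10, against 25.3, 27.5, 30.4, 30.9 and 25.7 CPM in WT replicates 1 to 5. The groups did not overlap, with replicates 8 and 10 nearest to WT (log2 change 0.68, SE 0.14, adjusted p = 0.00484). Stt3a had 112.5, 97.7, 85.8, 98.2 and 81.1 CPM in Fbp1-deleted livers, against 60.7, 74.7, 75.4, 76.9 and 69.9 CPM in WT livers. Again no liver overlapped (log2 change 0.41, SE 0.11, adjusted p = 0.017), and the call was lost without Fbp1-deleted replicate 6 (adjusted p = 0.0534). Stt3b, the catalytic subunit of the other form, had a log2 change of 0.32 (adjusted p = 0.0777), and the scaffold ribophorin Rpn1 had 0.39 (adjusted p = 0.0651). Rpn1 was above all WT livers in 4 of 5 Fbp1-deleted livers, while replicate 10, at 78.1 CPM, was below all of them, and without that replicate it was called (adjusted p between 0.00462 and 0.157 over the other settings). Rpn2 (0.17, adjusted p = 0.28), Ddost (0.20, adjusted p = 0.347) and Dad1 (-0.01, adjusted p = 0.949) were not called. Replicate 10 also held the lowest value of all 10 livers for Ddost and Dad1.

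COPII assembles when the GTPase Sar1 recruits the inner layer of Sec23 and Sec24, over which Sec13 and Sec31 form the outer cage. Sec23a, Sec23b, Sec24d and Sec13 were higher, and the 7 other COPII members were not called. Sec23a had 137, 109, 97.5, 138 and 121 CPM in Fbp1-deleted replicates 6 to 10, against 54.7, 65.5, 78.7, 87.1 and 62.7 CPM in WT replicates 1 to 5. No liver overlapped, and its log2 change of 0.79 was the largest of the 42 (SE 0.14, adjusted p = 0.00181). Its exons overlap those of Gm17529. Sec23b had 58.5, 66.2, 33.0, 52.5 and 47.1 CPM in Fbp1-deleted livers, against 25.7, 26.9, 36.7, 36.5 and 30.3 CPM in WT livers. Replicate 8 was inside the WT range and the other 4 were above it (log2 change 0.72, SE 0.17, adjusted p = 0.0105). Sec24d, one of the cargo-binding subunits, averaged 100.1 ± 17.3 CPM in Fbp1-deleted livers and 60.2 ± 16.9 CPM in WT livers (log2 change 0.73, SE 0.19, adjusted p = 0.017), with replicate 8 again inside the WT range. Sec13 averaged 46.9 ± 7.24 CPM in Fbp1-deleted livers and 32.5 ± 5.82 CPM in WT livers (log2 change 0.53, SE 0.14, adjusted p = 0.0174), and without Fbp1-deleted replicate 9 its adjusted p was 0.0506.

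The stretch before the start of Sec24d is shown because it holds the whole unfolded protein response element (UPRE), TGACGTGG, in capitals. It is the RefSeq sequence of GRCm38.p6 on the plus strand, chr3:123267246-123267477.
Sec24d: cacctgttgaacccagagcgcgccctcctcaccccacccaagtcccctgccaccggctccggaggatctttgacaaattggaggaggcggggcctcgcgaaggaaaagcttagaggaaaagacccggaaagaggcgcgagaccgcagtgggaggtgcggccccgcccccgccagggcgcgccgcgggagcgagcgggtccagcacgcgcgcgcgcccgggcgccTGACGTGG
The element lay at positions -26 to -19 from the RefSeq start. In the GENCODE annotation the gene begins 41 bases further upstream, so the element lies inside its annotated span. The remaining COPII members had log2 changes of 0.34 for Sec16a (adjusted p = 0.0958), which marks ER exit sites, 0.32 for Sec24b (adjusted p = 0.0645), 0.24 for Sec31a (adjusted p = 0.317), 0.21 for Sec24c (adjusted p = 0.178) and 0.20 for Sec24a (adjusted p = 0.244). The Sar1 paralogues had fitted changes of opposite sign, 0.23 for Sar1a (adjusted p = 0.148) and -0.22 for Sar1b (adjusted p = 0.127). On library totals alone, without further scaling, Sar1b was called lower.

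COPI, the coat of vesicles that return from the Golgi to the ER, had 4 of its 5 subunits among the members called higher. Of the 4 further subunits measured, Cope (log2 change 0.22, adjusted p = 0.267), Copz1 (-0.16, adjusted p = 0.299) and Copg2 (-0.09, adjusted p = 0.619) were not called and Copz2 was lower (-0.63, adjusted p = 0.0214). Copb1, the beta subunit, had 114, 98.7, 83.8, 116 and 100.6 CPM in Fbp1-deleted replicates 6 to 10, against 56.2, 59.5, 75.4, 74.9 and 60.4 CPM in WT replicates 1 to 5. The groups did not overlap, and the log2 change was 0.65 (SE 0.12, adjusted p = 0.00234). Arcn1, the delta subunit, had 177, 147, 119.9, 168 and 139 CPM in Fbp1-deleted livers, against 82.1, 101, 108, 114 and 102 CPM in WT livers. Replicate 8 was the lowest of its group and still above all WT livers (log2 change 0.56, SE 0.12, adjusted p = 0.00631). Copb2, the beta-prime subunit, averaged 119 ± 10.7 CPM in Fbp1-deleted livers and 86.7 ± 14.7 CPM in WT livers (log2 change 0.46, SE 0.12, adjusted p = 0.0163). Copa, the alpha subunit, averaged 191 ± 18.03 CPM in Fbp1-deleted livers and 146 ± 26.5 CPM in WT livers (log2 change 0.39, SE 0.13, adjusted p = 0.048). Its call was lost without any one of Fbp1-deleted replicates 6, 7, 8 and 9 or WT replicates 1, 2 and 5 (adjusted p between 0.0525 and 0.119), and its exons overlap those of Ncstn. Copg1, a gamma subunit, was not called (log2 change 0.31, adjusted p = 0.0971). The stretch before the start of Copb1, on the minus strand at chr7:114254701-114254930 of GRCm38.p6, is shown for its UPRE, which appears in capitals as the reverse complement.
Copb1: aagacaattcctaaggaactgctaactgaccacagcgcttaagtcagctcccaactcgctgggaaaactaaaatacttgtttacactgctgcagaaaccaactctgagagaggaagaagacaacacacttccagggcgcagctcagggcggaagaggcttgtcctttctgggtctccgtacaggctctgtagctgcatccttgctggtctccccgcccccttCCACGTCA
The element lay at positions -28 to -21 from the RefSeq start, inside the gene's span in GENCODE, which begins 31 bases further upstream.

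**Figure D2:**
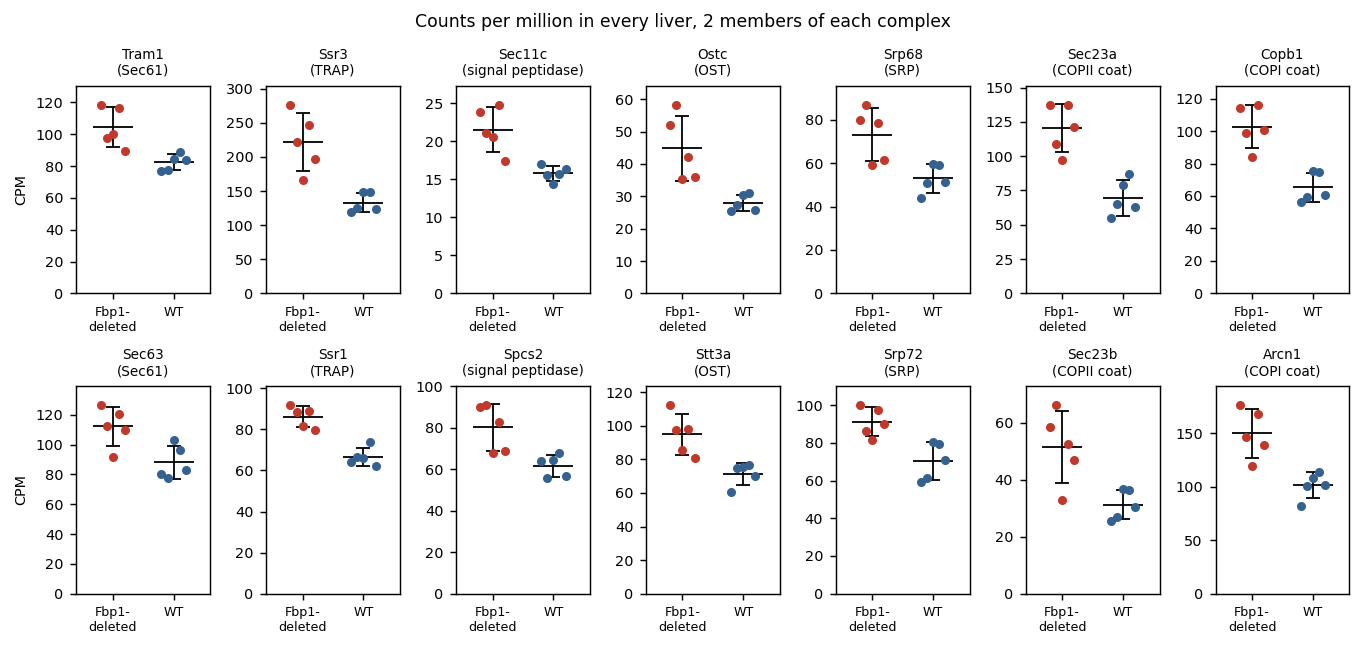
CPM in every liver (points, red for Fbp1-deleted and blue for WT) with the group mean and SD (lines) for the 2 members with the smallest adjusted p in each complex; each vertical axis starts at 0. The groups do not overlap in Tram1, Ssr1, Ssr3, Sec11c, Stt3a, Ostc, Srp72, Sec23a, Copb1 and Arcn1, and touch or overlap in Sec63, Spcs2, Srp68 and Sec23b.

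Of the 18 called members, 10 were called under all 19 other settings: Ssr1, Ssr3, Sec11c, Ostc, Sec23a, Sec23b, Sec24d, Copb1, Copb2 and Arcn1. Some calls also depended on scaling or filter, beside the livers left out. Tram1, Sec63, Spcs2 and Copa were lost with upper-quartile scaling, and these and Srp72 on library totals alone. Tram1, Sec63, Srp72 and Copa were lost without the filter on low counts, and Copa also without the robust step of edgeR. By complex, the median log2 change was 0.46 for COPI, 0.33 for the Sec61 group, 0.32 for COPII and for the oligosaccharyltransferase, 0.28 for TRAP, 0.25 for the signal recognition particle and 0.23 for signal peptidase. Differences between complexes were not tested.

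Several members are alternative forms of one subunit, which permits a comparison of their relative use within each liver. The tests of these ratios were added after the data were seen, and they are exact two-sided permutation tests over the 252 splits of 10 livers into 5 and 5, whose smallest possible p is 0.00794, adjusted over 5 ratios. The log2 ratio of Sar1a to Sar1b was -0.84 ± 0.11 in Fbp1-deleted livers and -1.30 ± 0.24 in WT livers (SD, n = 5 each; exact permutation p = 0.00794, adjusted p = 0.0198). All 5 Fbp1-deleted livers were above all WT livers in this ratio, with neither gene called on its own. Sar1b, the form required for chylomicron and lipoprotein export, stood at 144 ± 12.1 CPM per kilobase of its principal transcript in Fbp1-deleted livers and 167 ± 13.8 in WT livers. Sar1a stood at 36.9 ± 3.51 and 31.4 ± 4.12 CPM per kilobase in Fbp1-deleted and WT livers with its longest principal transcript, or 107 and 91.4 with its shortest, so its level relative to Sar1b depends on the transcript counted.

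The log2 ratio of Sec24d to the summed other Sec24 genes was -1.31 ± 0.11 in Fbp1-deleted livers and -1.86 ± 0.35 in WT livers (exact permutation p = 0.00794, adjusted p = 0.0198), again without overlap. Sec24d was the only Sec24 gene called higher in these same livers, so the test is not independent of that call. The adjustment does not cover the choice of Sec24d as the gene set against the others. Per kilobase, Sec24d stood at 25.6 ± 4.42 CPM in Fbp1-deleted livers and 15.4 ± 4.34 CPM in WT livers. Sec24c, at 28.1 ± 3.41 and 24.3 ± 2.30 CPM per kilobase in Fbp1-deleted and WT livers, was the most abundant Sec24 in both groups, within the spread of Sec24d in Fbp1-deleted livers. Sec24b was the least abundant, at 4.62 ± 0.54 CPM per kilobase in Fbp1-deleted livers and 3.70 ± 0.45 in WT livers. The log2 ratio of Sec11c to Sec11a was 0.22 larger in Fbp1-deleted livers (exact permutation p = 0.0635, adjusted p = 0.106), with an unadjusted exact p of 0.0317 when Fbp1-deleted replicate 7 was left out and 0.0238 without WT replicate 5. The ratio of Stt3a to Stt3b differed by 0.09 (exact permutation p = 0.27, adjusted p = 0.338). The ratio of Sec23b to Sec23a differed by -0.10 (exact permutation p = 0.556, adjusted p = 0.556), although without Fbp1-deleted replicate 7 it differed by -0.23 (unadjusted exact p = 0.0397). The counts come from Salmon, which assigns reads shared by close paralogues statistically, and the spread between livers does not include the error of that assignment.

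The livers of each group were not alike. Of the 42 members, 35, 35 and 33 were above the highest WT value in Fbp1-deleted replicates 6, 7 and 9, and only 18 and 17 in replicates 8 and 10. The median log2 ratio to the WT mean was 0.43, 0.41, 0.18, 0.44 and 0.14 in Fbp1-deleted replicates 6 to 10, and -0.18, -0.06, 0.09, 0.14 and -0.04 in WT replicates 1 to 5. The summed level of all 42 members was 4419, 4210, 3596, 4291 and 3576 CPM in Fbp1-deleted replicates 6 to 10, against 2850, 3056, 3465, 3496 and 3125 CPM in WT replicates 1 to 5. Replicates 8 and 10 thus exceeded WT replicate 4 by little. In COPI and TRAP the mean log2 CPM of replicates 8 and 10 still lay above every WT liver (COPI 6.78 and 6.78, against at most 6.70; TRAP 6.55 and 6.55, against at most 6.45). The same held for the signal recognition particle (5.80 and 5.78, against at most 5.73) and, by little, for the Sec61 group (5.92 and 5.85, against at most 5.84). In the signal peptidase it lay within the WT range (5.31 and 5.25, against at most 5.33). In COPII replicate 8, at 6.21, lay within the WT range and replicate 10, at 6.41, above its highest value of 6.31. For the oligosaccharyltransferase replicate 8, at 6.47, was above all WT livers and replicate 10, at 6.16, was not.

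**Figure D3:**
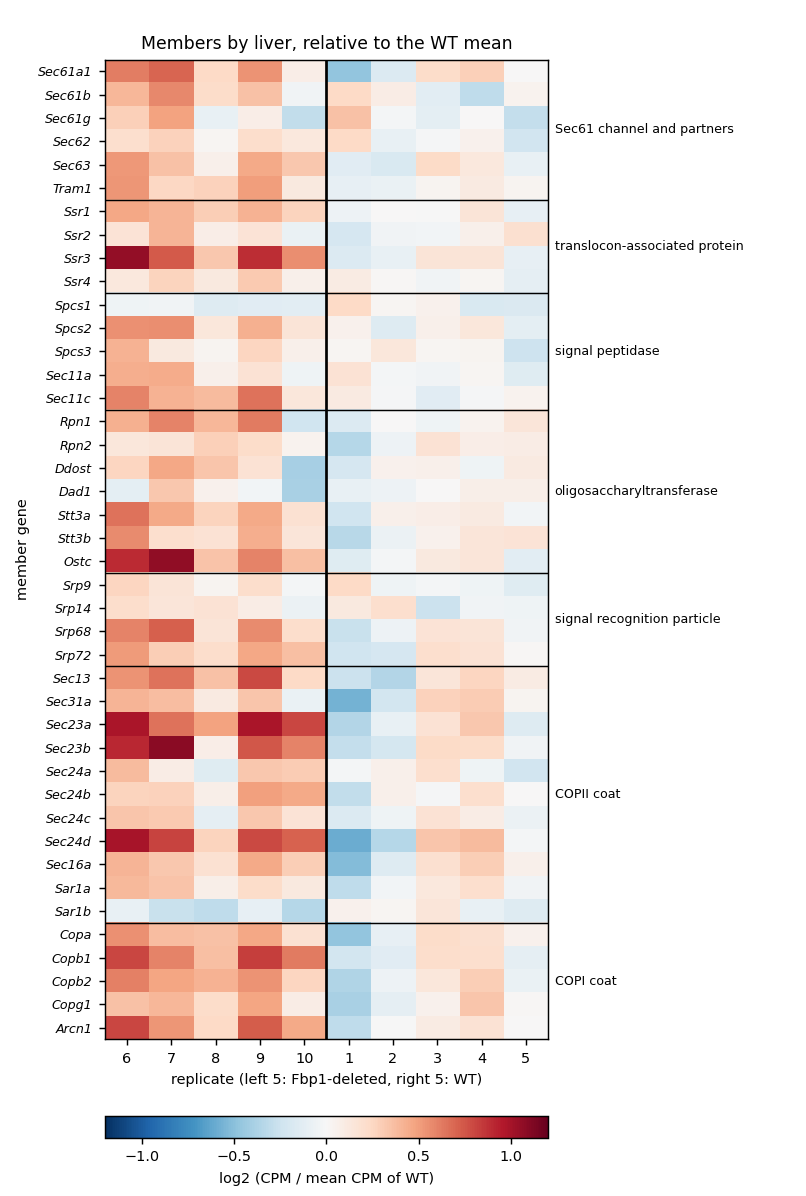
Log2 ratio of each member's CPM to the WT mean (colour, red above and blue below) in each liver, with the 5 Fbp1-deleted livers left of the line and the 5 WT livers right of it. Fbp1-deleted replicates 6, 7 and 9 are red in nearly every row, replicates 8 and 10 are paler, and Spcs1 and Sar1b are blue in all 5.

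Genes of the ER stress response were set beside the members. Of the 19 regulators and chaperones listed, 14 were higher and 1, Xbp1, was lower, with a median log2 change of 1.06. Without Fbp1-deleted replicates 8 and 10, 16 were higher, the log2 change of Xbp1 was -0.42 (adjusted p = 0.116), and the median was 1.42. Those replicates were left out for their low values in these genes too, a choice that favours the larger count and median. Hspa5, which encodes the chaperone BiP, had 2133, 1873, 512, 2099 and 630 CPM in Fbp1-deleted replicates 6 to 10, against 242, 284, 411, 472 and 359 CPM in WT replicates 1 to 5. It separated the groups without overlap, with replicates 8 and 10 far below the other 3 (log2 change 2.04, SE 0.44, adjusted p = 0.011). Ern1, Hsp90b1 and Sel1l were also called higher, with smaller changes than Hspa5. Over the 19 other settings the log2 change ran between 0.737 and 0.959 for Ern1 and between 0.921 and 1.21 for Hsp90b1. For Sel1l it ran between 0.866 and 1.11, and for Hspa5 between 1.83 and 2.25. Xbp1 had a log2 change of -0.52 (adjusted p between 0.0575 and 0.062 without Fbp1-deleted replicate 6 or 10), and these counts do not separate its spliced from its unspliced form. The mean log2 CPM of the 19 genes was 8.12, 8.05, 6.92, 8.10 and 6.89 in Fbp1-deleted replicates 6 to 10, against 6.21, 6.35, 6.72, 6.99 and 6.54 in WT replicates 1 to 5. Replicates 8 and 10 therefore lay inside the WT range for ER stress genes. Over the 42 members the mean log2 CPM was 6.45, 6.41, 6.16, 6.41 and 6.15 in the Fbp1-deleted livers, against 5.85, 5.94, 6.08, 6.11 and 5.96 in the WT livers, so here the same replicates lay just above it. The order of the WT livers was 1, 2, 5, 3 and 4 in both gene sets, and also in the other early secretory genes described below. Whether the change of the members follows from that of the ER stress genes was not tested.

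**Figure D4:**
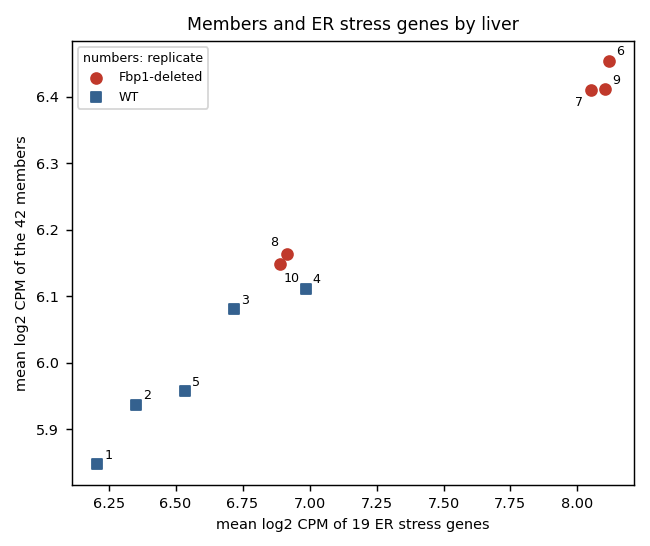
Mean log2 CPM of 19 ER stress genes (horizontal axis) and of the 42 members (vertical axis) in each liver, numbered by replicate, with red circles for Fbp1-deleted and blue squares for WT. Fbp1-deleted replicates 6, 7 and 9 lie apart at the upper right, and replicates 8 and 10 lie beside WT replicate 4.

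The cargo that hepatocytes send through this route gave no call. Of 12 plasma protein genes, Alb, Apob and Ttr among them, 0 were called by edgeR (median log2 change -0.10), with 1 lower at an unadjusted p under 0.05 and 1 called lower by DESeq2.

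The rest of the early secretory pathway was followed in 110 further tested genes, of which 29 were higher and 4 lower, a share of 30%, with a median log2 change of 0.19. The count higher fell to 17, 18, 19 and 18 when Fbp1-deleted replicate 6, Fbp1-deleted replicate 9, WT replicate 1 or WT replicate 2 was left out, and the count lower to 2 without Fbp1-deleted replicate 9 or 10 or WT replicate 1, 2 or 5. Over all genes the share called higher fell as well, from 10.6% to 6.9%, 6.76%, 8.3% and 6.99% without those same 4 livers in turn. Without Fbp1-deleted replicates 8 and 10 together, 39 were higher and 3 lower. As with the members, that choice of livers favours the larger count higher. In targeting, the receptor subunits Srprb (log2 change 0.98, adjusted p = 0.00292) and Srpr (0.41, adjusted p = 0.0496) were the 2 of 9 called, and both had the same direction as Srp68 and Srp72. In vesicle docking and fusion, 8 of 12 SNAREs and tethers were higher and the median was 0.51. They included the SNAREs Gosr1 (0.59, adjusted p = 0.00135), Bet1 (0.80, adjusted p = 0.00277) and Sec22b (0.68, adjusted p = 0.00322), and the tether Uso1 (0.83, adjusted p = 0.00229). Among cargo receptors 5 of 16 were higher, led by Tmed5 (1.15, adjusted p = 0.00172), a p24 family protein, and Lman1 (0.68, adjusted p = 0.00193), the lectin that ferries coagulation factors. Tmed9 (0.50, adjusted p = 0.0276) and Tmed3 (0.65, adjusted p = 0.03), of the same p24 family, followed. COPII accessory genes were higher in 2 of 7, Tfg (0.66, adjusted p = 0.0096), which organises exit sites, and Preb (0.53, adjusted p = 0.0147), the exchange factor for Sar1.

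The COPI machinery outside the members was divided. The GTPases Arf4 (log2 change 0.57, adjusted p = 0.00496) and Arf1 (0.43, adjusted p = 0.015) were higher, and the subunit Copz2 (-0.63, adjusted p = 0.0214) and the GTPase Arf5 (-0.40, adjusted p = 0.0243) were lower, of 11 tested. In glycan assembly on dolichol, 4 of 22 were higher, among them the mannosyltransferases Alg12 (1.05, adjusted p = 0.0148) and Alg2 (0.82, adjusted p = 0.0155) and the prenyltransferase subunit Nus1 (0.36, adjusted p = 0.0429). Dolk, the dolichol kinase, was lower (-0.53, adjusted p = 0.00744). Glycan trimming and the lectin cycle had 5 of 11 higher. Named by the smallest adjusted p, these were Edem3 (0.84, adjusted p = 0.0125), which trims mannose before degradation, the disulfide isomerase Pdia3 (0.67, adjusted p = 0.0197), the folding sensor Uggt1 (0.56, adjusted p = 0.0283) and the lectin Calr (0.64, adjusted p = 0.0381). In the ER membrane protein complex, an insertase that acts beside the translocon, Mmgt1 was higher (0.46, adjusted p = 0.0217) and Emc9 lower (-0.87, adjusted p = 0.00722), of 10. Neither the 5 remaining oligosaccharyltransferase genes nor the 7 tail-anchored insertion genes gave a call with edgeR, DESeq2 or limma-voom, and at an unadjusted p under 0.05 there were 0 and 1. Exons of Srpr, Preb, Arf4, Arf5, Tmed5, Pdia3 and Emc9 overlap another gene on the opposite strand, and those of Srprb and Mmgt1 one on the same strand, so the counts of these genes are uncertain.

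Of these named pathway genes, 10 lost their call without some single liver. In at least 5 of the 10 fits that left out a liver this befell Srpr, Copz2, Arf5, Tmed9, Tmed3, Nus1 and Calr, with adjusted p up to 0.123 for Srpr. In 3 of the 10 it befell Mmgt1, Pdia3 and Uggt1, with adjusted p up to 0.0756. Each was lost without Fbp1-deleted replicate 6. Some of these calls depended on the method too. Srpr was lost with RLE or upper-quartile scaling, on library totals alone and without the robust step. Nus1 was lost with upper-quartile scaling, on library totals alone and without the filter. Calr was lost on library totals alone, without the filter and with limma-voom, and Tmed3 with limma-voom.

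In the RefSeq promoters, taken from 250 bases before to 50 bases after the start, 34 of the 42 members had an entry. Both strands were searched. The UPRE, TGACGTGG, occurred in 4 of the 34 (11.8%), against 0.963% of 11008 tested genes with a promoter. Those 4 were Copb1, Copb2, Sec23a and Sec24d, coat genes that were all called higher. Its core ACGTGG, which every UPRE also contains, occurred in 14 of 34 (41.2%), against 12.7% of all tested genes. By call, 8 of 13 called members held the core and 6 of 21 members not called. Over all tested genes the core was in 16.7% of those called higher, 12.6% called lower and 12.1% not called. The ER stress element (ERSE), CCAAT followed after 9 bases by CCACG, occurred in 0 of 34 members and in 0.164% of all tested genes. For the whole elements the ER stress genes were the other way round. The ERSE was in 6 of 16 (37.5%), Hspa5 and Hsp90b1 included, and the UPRE in 0. The core was not particular to the members. It was in 5 of 16 ER stress genes (31.2%) and in 28 of 96 other early secretory genes (29.2%). Neither ERSE-II, ATTGG followed after 1 base by CCACG, nor the amino acid response sequence TGATGNAA was in a member promoter. The CCAAT box alone was in 41.2% of members and 42.6% of all tested genes, and the median GC content was 60.3% and 60.0%. The median number of CG steps was 23 in member promoters and 19 in those of all tested genes. Both the UPRE and its core hold such a step. CCACG, which also holds a CG, was in 67.6% of members and 49.9% of all tested genes. The part of CG number in the motif shares was not tested. These are counts of letters, not of bound sites, and they were not tested.

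**Figure D5:**
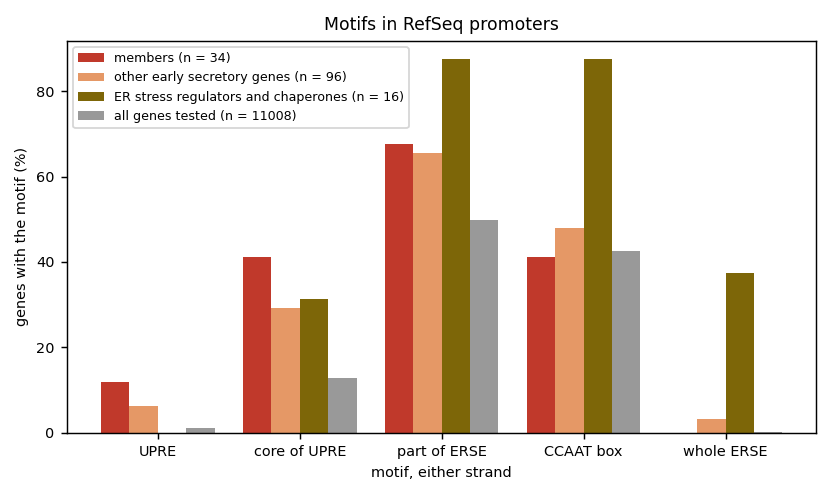
Share of genes (vertical axis, percent) whose promoter holds each motif on either strand, for the members, the other early secretory genes, the ER stress genes and all genes tested; core of UPRE is ACGTGG and part of ERSE is CCACG. The members stand highest for the UPRE and its core, and the ER stress genes for the whole ERSE.

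Some measured properties moved with the groups. Across all genes the log2 change was larger for longer transcripts, with a median of -0.08 for principal transcripts under 2 kb and 0.06 for those of 2 kb and over. Of the members, 3 of 12 under 2 kb and 15 of 30 of 2 kb and over were called higher, with medians of 0.17 and 0.36. Members in each length class had a higher median than all genes of that class, and the part of length in the members' changes was not tested.

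In bulk tissue a change in the number of cells of a type and a change in RNA per cell cannot be told apart. Markers of other liver cells were therefore followed beside the members. Leukocyte markers summed to between 10.3 and 16.6 CPM in Fbp1-deleted livers and between 18.7 and 22.7 CPM in WT livers, with no overlap between the groups. Of their 8 genes 7 were fitted lower and 1, Ly6c2, was called lower. Among B and plasma cell markers Igkc, Ighm and Cd79a were lower, and Sdc1, which hepatocytes also make, was higher. Igkc averaged 8.68 ± 3.18 CPM in Fbp1-deleted livers and 21.6 ± 9.66 CPM in WT livers. The plasma cell gene Jchain averaged 2.93 ± 0.53 CPM in Fbp1-deleted livers and 4.21 ± 1.996 CPM in WT livers, and Mzb1 averaged 0.54 ± 0.30 CPM in Fbp1-deleted livers and 0.47 ± 0.18 CPM in WT livers, with neither called. Tnfrsf17, also a plasma cell gene, was at 0 in all Fbp1-deleted livers and at most 0.16 CPM in WT livers. The summed B and plasma cell list ranged between 327 and 412 CPM in Fbp1-deleted livers and between 234 and 424 CPM in WT livers, mostly from Sdc1.

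Kupffer cell markers were lower in 4 of 7, with sums between 169 and 249 CPM in Fbp1-deleted livers and between 226 and 314 CPM in WT livers. Stellate cell markers were higher in 1 of 7, Dcn, with sums between 186 and 251 CPM in Fbp1-deleted livers and between 141 and 209 CPM in WT livers. Of 6 sinusoidal endothelial markers Lyve1 was higher, while the other 5 were fitted lower and not called (median log2 change of the 6 was -0.22). Their sums ran between 137 and 227 CPM in Fbp1-deleted livers and between 189.5 and 224 CPM in WT livers. Cholangiocyte markers summed to between 12.9 and 22.2 CPM in Fbp1-deleted livers and between 16.5 and 28.9 CPM in WT livers. Of 7 pancreatic acinar markers Cpa1 was at 0 in all 10 livers, and Cela1, the 1 tested, was lower. The part of these cell types in the members' changes was not tested.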

How the data were processed

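Per the labels' protocols, total RNA of snap-frozen liver was made into a non-directional Illumina mRNA library for each of 10 mice. The table holds estimated counts per gene as deposited by the authors, all whole numbers. CASAVA and Salmon are listed, with GRCm38 as the build, in the submitters' processing notes, and the series' design text also describes STAR, featureCounts and DESeq2 in R 3.3.3. How transcripts were summed to genes, and whether counts were corrected for transcript length, is not given in the sources used here. Group and replicate came from the sample titles, and totals ran between 17778395 and 23894812 counts. Symbols and positions are from GENCODE M21, matched by identifier for all but 37 of 53392 genes.

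Groups were compared in R 4.3.3 by edgeR 4.0.16 (filterByExpr, TMM scaling, robust glmQLFit and glmQLFTest, no covariate), and p-values were adjusted by Benjamini-Hochberg over 15392 genes, threshold 0.05. The procedure was tested on simulated data. CPM uses TMM-scaled library sizes. P-values measure the spread between these livers. No 2 livers of a group were alike enough to be 1 library (smallest chi-square per degree of freedom 16.2).

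The members and lists were chosen with earlier results of these data known. Values in every liver are given for the 2 members of each complex with the smallest adjusted p, and up to 4 called genes of each other list, plus up to 2 called the other way, are named. Alternatives were DESeq2 1.42.0, limma-voom 3.58.1, RLE, upper-quartile and no scaling, no filter and a stricter filter (1 CPM in 5 livers), no robust step, removal of 8 genes above 1% of a library, each liver left out, and a threshold of 0.01. Chosen after seeing the data were the paralogue ratio tests and the fit without Fbp1-deleted replicates 8 and 10. Transcript length is that of the longest principal transcript. Promoters are RefSeq entries on GRCm38.p6, and no sequence of a gene on chromosome 18 was printed. Protein sequences were not used here.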

Additional observations from a re-analysis of the deposited data

Results flagged for a closer look

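Of 148 groups of 5 livers checked (74 genes in each genotype), 5 held a liver whose gap to its nearest neighbour exceeded 0.71 of the group's range; chance flags about 1 in 20 such groups. Among the members this was Srp9 only, at 77.83 CPM in WT replicate 1, against 64.73 CPM in the next WT liver. Bet1, an ER-Golgi SNARE, was lowest in Fbp1-deleted replicate 8, at 33.69 CPM, with 54.28 CPM in the next. Dolk, the dolichol kinase, was highest in the same Fbp1-deleted replicate 8, at 14.79 CPM, with 10.98 CPM in the next. The chaperone gene Hsp90b1 was highest in WT replicate 4, at 721.8 CPM, with 623.4 CPM in the next. Xbp1 was highest in the same WT replicate 4, at 268.9 CPM, with 179.5 CPM in the next.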

How the results depend on the processing

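No paired analysis was run because the labels state no pairing between livers of the groups. At an adjusted p under 0.01, 6 members were called higher, with 11 other early secretory genes higher and 2 lower, and 678 of all genes higher and 633 lower. With each liver left out in turn, between 11 and 22 members were called higher, between 17 and 37 other early secretory genes higher and between 2 and 4 lower, and between 1066 and 2060 of all genes higher and between 1019 and 1858 lower. On library totals alone 13 members were higher and 1, Sar1b, lower, with 7 other early secretory genes lower. That scaling put the share higher among all called genes at 37.7%, and upper-quartile scaling, with 14 members higher, at 40.3%, against 51.5% with TMM. DESeq2 called 20 members higher. Under every setting at least 39 of 42 members were fitted above 0. The exception to a stable sign was Dad1, never called, whose log2 change ran between -0.108 and 0.0613 with a liver left out, and was 0.0692 without Fbp1-deleted replicates 8 and 10. Of the 24 members not called, 7 passed in at least 1 of 19 settings (Sec61a1, Sec61b, Rpn1, Sec24b, Sec16a, Copg1 and Sar1b). The cause of these shifts was not tested. The least abundant member, Sec61g, had at least 68 counts in every liver, and the biological coefficient of variation over all genes was 0.235.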

Other observations

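Promoter motifs were also counted over all tested genes by call. The UPRE was in 22 of 1235 genes called higher (1.78%), in 8 of 1091 called lower (0.733%) and in 76 of 8682 not called (0.875%). The whole ERSE was in 11 of 1235 genes called higher (0.891%), in 0 of 1091 called lower and in 7 of 8682 not called (0.0806%). Beside the 4 coat genes, 6 of 96 other early secretory genes with a promoter held the UPRE. Of these, Arf1, the SNARE Stx5a and its regulator Scfd1 were called higher, Gbf1, an exchange factor for Arf1, and Sec16b, a paralogue of Sec16a, were not called, and Kdelr3 was not tested. The lectin chaperone genes Calr and Canx and the mannosyltransferase gene Alg12, all called higher, held the whole ERSE. These shares are descriptions and were not tested.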
